A study of Drosophila melanogaster with 3 samples.

Results

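The fibroblast growth factor (FGF) genes of the fly, branchless (bnl), breathless (btl), heartless (htl), thisbe (ths) and pyramus (pyr), were examined for peaks of a GFP-tagged abd-A protein in embryos. They were chosen by name, as 5 of the 13945 protein-coding genes on the main chromosome arms, and each was given a window of its gene body with 10 kb on each side. The chromatin was that of intact Drosophila melanogaster embryos, male and female together and 4 to 24 hours old. Their transgenic line stably expresses abd-A, a Hox protein of abdominal segments, fused at its C-terminus to GFP, and an anti-GFP antibody was used for precipitation. There was 1 group, with 3 biological replicates and no second condition, and the embryos hold many cell types, so a peak cannot be assigned to trachea, mesoderm or any other tissue. Of the 8143 peak summits in the list kept after thresholding on rank reproducibility (the irreproducible discovery rate, IDR), 17 fell in the 5 windows. Of the 30000 summits of the list called on all replicates together (the pooled list), 66 did. The lists of replicates 1, 2 and 3, each 30000 peaks long, placed 63, 65 and 61 there.

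FGF ligands are secreted proteins that bind receptor tyrosine kinases on nearby cells, with heparan sulfate as a cofactor, and start the Ras and MAP kinase cascade. In the fly embryo the ligand bnl is made in small groups of cells around the tracheal placodes, and its receptor btl is made in tracheal cells, which migrate towards the ligand as branches form. The ligands ths and pyr lie beside each other in the genome, are made largely in ectoderm, and act on the receptor htl in mesoderm, where spreading of the mesoderm and the heart and muscle founder cells depend on it. Both receptors work through the adaptor stumps.

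Sequences are shown for the upstream promoter of both receptors and for the bnl promoter, because the receptors differ in whether an IDR peak lies there. They are also shown for the regions around the strongest pair of intronic bnl summits. They are from genome release 6 (RefSeq), 300 bases each, on the strand of the gene, and 10 short words linked to Hox, tracheal, mesodermal or general chromatin factors were searched on both strands. Capitals mark matches to any of these words. Promoter sequences run from 250 bases before the upstream-most start to 50 bases from it on. The downstream starts of btl and htl are not shown.
bnl promoter: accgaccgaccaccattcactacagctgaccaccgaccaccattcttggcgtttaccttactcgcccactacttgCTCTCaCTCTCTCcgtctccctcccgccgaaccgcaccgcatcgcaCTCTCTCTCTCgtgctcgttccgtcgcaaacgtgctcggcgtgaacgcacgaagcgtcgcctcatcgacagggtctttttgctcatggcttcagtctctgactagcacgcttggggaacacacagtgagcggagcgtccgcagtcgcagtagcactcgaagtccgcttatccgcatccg
htl promoter: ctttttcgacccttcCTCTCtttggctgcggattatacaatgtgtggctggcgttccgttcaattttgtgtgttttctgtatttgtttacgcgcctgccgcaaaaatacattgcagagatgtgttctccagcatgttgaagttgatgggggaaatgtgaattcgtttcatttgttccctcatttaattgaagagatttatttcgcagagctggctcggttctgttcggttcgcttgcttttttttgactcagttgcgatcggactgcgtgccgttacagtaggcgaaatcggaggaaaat
btl promoter: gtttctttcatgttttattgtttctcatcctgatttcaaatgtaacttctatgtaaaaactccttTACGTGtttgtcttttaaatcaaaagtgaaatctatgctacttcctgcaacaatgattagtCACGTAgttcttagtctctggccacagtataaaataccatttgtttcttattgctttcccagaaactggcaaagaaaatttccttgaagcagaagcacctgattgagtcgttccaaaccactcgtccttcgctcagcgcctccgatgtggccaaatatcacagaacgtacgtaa
bnl intron summit 4: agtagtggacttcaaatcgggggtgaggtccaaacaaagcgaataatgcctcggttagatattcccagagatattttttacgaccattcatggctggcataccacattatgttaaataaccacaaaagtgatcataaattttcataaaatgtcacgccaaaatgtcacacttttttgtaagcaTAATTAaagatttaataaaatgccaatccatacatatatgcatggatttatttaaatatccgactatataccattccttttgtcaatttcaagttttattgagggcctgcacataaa
bnl intron summit 3: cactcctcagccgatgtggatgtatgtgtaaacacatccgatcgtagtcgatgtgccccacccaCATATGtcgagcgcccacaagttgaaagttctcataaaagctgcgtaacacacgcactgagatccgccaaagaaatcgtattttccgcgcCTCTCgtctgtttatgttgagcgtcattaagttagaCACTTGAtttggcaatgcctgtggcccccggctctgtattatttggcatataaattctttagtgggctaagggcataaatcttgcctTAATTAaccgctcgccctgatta

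These are chr3R:19836768-19837067, chr3R:18052935-18053234, chr3L:14075522-14075821, chr3R:19803563-19803862 and chr3R:19826883-19827182 in dm6. An IDR summit lay at base 167 of the bnl promoter sequence and at base 28 of the htl promoter sequence, and none lay in that of btl. The bnl promoter held 7 matches of GAGAG, the word of the GAGA factor, counting overlapping ones and the complement CTCTC, and the htl promoter held 1. GAGAG was present in 33.1% of 19253 coding promoters of this length. The btl promoter held 2 matches of TACGTG, the word bound by the tracheal regulator trh with its partner tgo, which 6.09% of promoters held. Both intronic bnl regions held TAATTA, a homeodomain core, present in 13.1% of IDR regions of 300 bases. Summit 3 also held CATATG, a Twist word (8.20% of IDR regions), and TCAAGTG, a Tinman word (4.74%). A match describes these letters and is not a binding site.

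Of the 5 genes, 4 had an IDR peak in the window, namely bnl with 5, ths with 6, pyr with 5 and htl with 1, and btl had none. Such a window held an IDR summit in 52.6% of all coding genes, so the presence of a peak at 4 genes is not a result about them. A pooled summit was also found at 4 of the 5 genes, against 67.6% of coding genes. Replicates 1, 2 and 3 had a summit at 5, 4 and 5 of the 5 genes, against 69.9%, 68.3% and 69.7% of coding genes. At least 5 IDR summits, the number reached at bnl, ths and pyr, were found in 8.85% of coding genes. The windows differ in length, at 62.7 kb for bnl, 27.5 kb for btl, 27.8 kb for htl, 77.6 kb for ths and 34.1 kb for pyr, so densities are the fairer measure. The IDR list gave 0.797 summits per 10 kb at bnl, 0 at btl, 0.360 at htl, 0.773 at ths and 1.47 at pyr, against a median of 0.346 over all coding genes. Of all coding genes 28.4% were at least as dense as bnl, 28.9% as ths, 49.6% as htl and 10.1% as pyr.

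**Figure D1:**
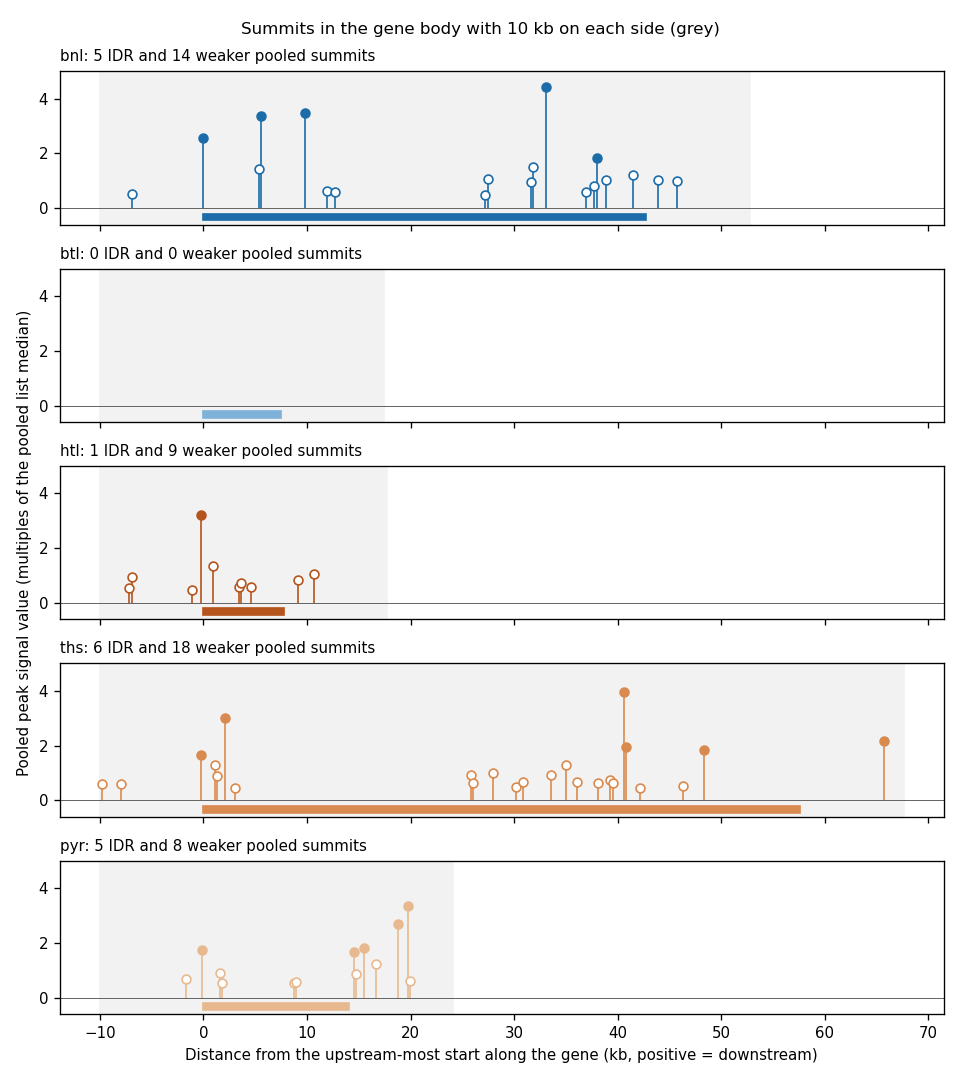
Pooled summits in each gene window, by distance from the upstream-most annotated start (kb, in the direction of transcription) and by signal value as a multiple of the median of the pooled list. Filled points are also in the IDR list, open points are weaker pooled summits, the coloured bar is the gene body and grey is the window: bnl has 5 filled points, btl no point at all, and 4 of the 5 filled points of pyr lie past its end.

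The ligand bnl (chromosome 3R, 19794073 to 19836817, minus strand, 42.7 kb) carried its strongest peaks inside the gene. Summits are numbered here in the direction of transcription. Summit 4, at 19803713 in intron 2 of 4 and 33104 bp from the start, had a signal value of 3.99, 4.67 and 3.38 times the list median in replicates 1, 2 and 3 (mean 4.02, SD 0.644, n = 3). By this mean it was the strongest summit in the 5 windows, although the htl promoter summit was higher in replicate 3 with 3.52 times, and it ranked 1029 among the 8143 IDR peaks. The nearest start of any gene was that of tRNA:Thr-AGT-1-7, nested in bnl and 1023 bp away. Summit 3, at 19827033 in the same intron, which is 27152 bp long, stood at 3.24, 3.48 and 3.23 times the median in replicates 1, 2 and 3 (3.32 ± 0.146, SD, n = 3). Replicate spread was small there and wide at summit 2 (19831242, intron 1), with 2.24, 3.98 and 3.23 times. The promoter summit, 84 bp before the start, had 2.15 and 1.96 times the median in replicates 1 and 2 and was higher in replicate 3 with 3.25 times. Summit 5 (19798859, intron 3) was the weakest, at 1.76 and 1.56 times in replicates 1 and 2, and replicate 3 had no summit within 100 bp of it. Replicate 3 did have a summit of 1.80 times the median within 100 bp of a weaker pooled summit nearby, at 19799059. The nearest coding start of summits 4 and 5 was that of Acsx4, 20191 and 15337 bp away, beyond the 3' end of bnl.

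The receptor btl (chromosome 3L, 14075772 to 14083229, plus strand, 7.46 kb, with 2 starts) lay in a stretch without IDR or pooled peaks. No summit of the IDR or pooled list fell in its window, and no summit of any of the 5 lists fell in the gene. In the pooled list 32.4% of coding genes had no summit in such a window, so an empty window was common. Replicates 1 and 3 each had 1 weak summit beyond the 3' end of btl, 3518 and 3643 bp past it, at 0.726 and 0.586 times the list median, and replicate 2 had none. The nearest pooled summits stood 13.0 kb before the gene, in an intron of Frl, and 25.1 kb past it, at the promoter of Sox21a. This gap of 45.5 kb was matched or exceeded by 1.17% of the 29994 gaps in the pooled list, whose median was 1.25 kb. In the IDR list the gap was 54.1 kb, matched or exceeded by 6.26% of gaps. Both are shares of gaps, and a long gap spans more sequence than a short one. They are therefore not the share of genes or of sequence lying in such a gap, which was not computed. Coding sequence filled 40.4% of the btl window, against 6.39 to 7.88% of the windows of the other 4 genes. Among the 4846 coding genes with at least that share, a cut chosen after the values were seen, 54.7% had no pooled summit, against 20.6% of the 9099 others. The part of coding sequence in the empty btl window was not tested.

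The tracheal ligand and receptor thus differed in every replicate. The bnl window held 21 summits in each of the 3 replicates, against 1, 0 and 1 in the btl window. That is 3.35 ± 0.00 summits per 10 kb at bnl and 0.243 ± 0.210 at btl (SD, n = 3), a difference of 3.10 ± 0.210. The strongest peak averaged 4.02 ± 0.644 times the list median at bnl and 0.437 ± 0.385 at btl, with 0 entered where no peak was listed. The two-sided exact sign-flip permutation test gave p = 0.25 for both differences, the smallest that 3 replicates allow, with bnl higher in 3 of 3 (0.409 for each, adjusted over the 18 differences computed).

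**Figure D2:**
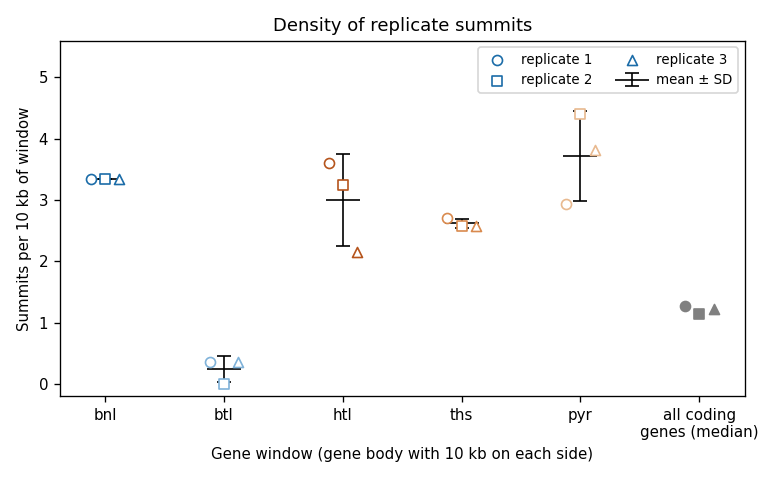
Summits per 10 kb of each gene window in the 3 replicate lists, with the mean and SD, and the median over all coding genes in each replicate in grey. The points of btl lie at or below 0.364, and those of the other 4 genes lie between 2.16 and 4.40, above the grey points at 1.14 to 1.28.

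The receptor htl (chromosome 3R, 18045216 to 18052984, minus strand, 7.77 kb) is about as long as btl and had 1 IDR peak. Its summit, at 18053207 and 223 bp before the upstream start, stood at 3.05, 2.55 and 3.52 times the list median in replicates 1, 2 and 3 (3.04 ± 0.486, SD, n = 3) and ranked 2207 in the IDR list. The pooled list added 9 weaker summits, the highest 964 bp into the gene at 1.36 times the pooled median, and others beside the downstream start and on either side of the gene. Replicates 1, 2 and 3 placed 10, 9 and 6 summits in the window, so replicate 3 had the fewest. Annotated transposable elements filled 23.7% of this window and 0% of the other 4 windows, and their effect on the counts was not tested.

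The htl and btl windows are of nearly equal length, and htl held more summits in each replicate. The window of htl had 3.00 ± 0.750 summits per 10 kb and that of btl 0.243 ± 0.210 (SD, n = 3).

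The ligand ths (chromosome 2R, 11756817 to 11814424, plus strand, 57.6 kb, with 2 starts) had 6 IDR summits, and 3 coding genes, CG13193, CG42493 and Ir48c, are nested in it. Near the upstream start lay a weak promoter summit, 191 bp before it, at 1.61 ± 0.259 times the list median. Summit 2 lay in the 5' UTR, 2076 bp into the gene, at 2.68, 2.80 and 3.02 times the median in replicates 1, 2 and 3 (2.83 ± 0.176, SD, n = 3). Summits 3 and 4 sat 202 bp apart in intron 3 of 4, and belonged to overlapping peaks. Summit 3, the strongest at ths, at 11797457 and 7091 bp past the downstream start, had 3.64, 4.00 and 3.31 times the median (3.65 ± 0.344), with each replicate's summit at the same base. Summit 4 had 2.26, 1.89 and 1.32 times, so replicate 3 was lowest. Summit 5 followed in the same intron at 1.77 ± 0.271 times. Summit 6 lay 8077 bp past the end of ths, nearer to the start of CG13192 at 2844 bp. It had 2.27 and 1.79 times the median in replicates 2 and 3 and no summit within 100 bp in replicate 1.

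The ligand pyr (chromosome 2R, 11712263 to 11726345, plus strand, 14.1 kb) had no IDR summit within the gene body. Its promoter summit, 107 bp before the start, stood at 1.44, 1.62 and 2.41 times the list median in replicates 1, 2 and 3 (1.82 ± 0.515, SD, n = 3). The other 4 lay 450, 1440, 4748 and 5686 bp past the 3' end and had pyr as the nearest coding start, and the outermost was the strongest. That summit, at 11732031, had 3.29, 3.04 and 3.12 times the median in replicates 1, 2 and 3 (3.15 ± 0.127). Its neighbour at 11731093 had 2.54 ± 0.226 times. The summits nearest the gene end had 1.56 ± 0.182 and 1.76 ± 0.196 times. The outer pair had 2.29 to 3.29 times the median over the replicates and the inner pair 1.44 to 1.96 times, so they did not overlap.

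Between pyr and ths lies an interval of 30.5 kb with 0 annotated genes, and it held 7 IDR summits. These were the 4 past pyr, the ths promoter summit, and a further 2 outside both windows, 14037 and 19667 bp past pyr, looked up after the values were seen. Their signal values were 1.60 ± 0.539 and 1.64 ± 0.529 times the median of the lists (SD, n = 3). The interval had 2.30 IDR summits per 10 kb, against 0.608 over the main arms. Replicates 1, 2 and 3 had 4.92, 5.25 and 5.91 summits per 10 kb there, against 2.24 over the arms in each list. The arms include genes and coding sequence. The share of other gene-free intervals at least as dense was not computed, so the density is not shown to be particular to this interval. The gene bodies had 0 IDR summits per 10 kb at pyr and 0.694 at ths. In replicates 1, 2 and 3 they had 0.710, 4.97 and 2.13 summits per 10 kb at pyr and 3.12, 2.95 and 2.78 at ths. The pyr gene body was thus not empty in the replicate lists.

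**Figure D3:**
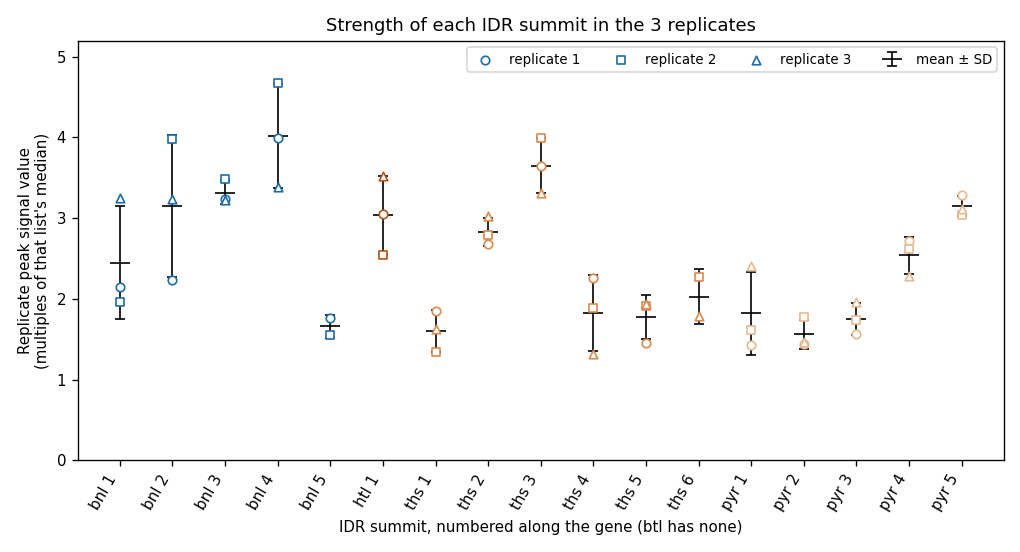
Signal value of each IDR summit in the 3 replicate lists, as multiples of the median of that list, with the mean and SD over the replicates that had a summit within 100 bp. Summits are numbered along each gene. The strongest are bnl 4 at 4.02 and ths 3 at 3.65, and the promoter summits are bnl 1, htl 1, ths 1 and pyr 1.

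The bound members had a promoter peak in common. At bnl, htl, ths and pyr an IDR summit lay 84, 223, 191 and 107 bp before the upstream-most start. A summit within 500 bp of an own start was found at 12.8% of all coding genes, at 24.3% of the 7340 with an IDR summit in the window, and at 58.2% of the 1234 with at least 5. The promoter summit was the sole and strongest IDR peak at htl, at 3.04 ± 0.486 times the list median. At the ligands it was weaker than the strongest distal summit, with 2.45 ± 0.698 against 4.02 ± 0.644 times at bnl, 1.61 ± 0.259 against 3.65 ± 0.344 at ths and 1.82 ± 0.515 against 3.15 ± 0.127 at pyr (mean ± SD, n = 3). The distal summit was higher in 3 of 3 replicates at each ligand. It was picked as the strongest of several by these same values, so this count is largely set by the choice and is no test. By location, 7 of the 17 IDR summits were intronic, 5 intergenic, 4 at promoters and 1 in a 5' UTR, with 0 in coding exons. Coding sequence filled 6.39 to 7.88% of the 4 windows that hold these summits. The share of each class over all IDR summits was not computed, so these counts are not a result about the members.

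Set against the mesodermal genes, the tracheal pair was lower on both measures, although bnl alone had the strongest peak of the 5 genes by the replicate mean. In density too bnl alone was not lower, with 3.35 ± 0.00 summits per 10 kb, and btl had 0.243 ± 0.210 (SD, n = 3). By density bnl was higher than ths in 3 of 3 replicates and than htl in 2 of 3, and lower than pyr in 2 of 3. Summits numbered 2.40 ± 0.0640 per 10 kb in the bnl and btl windows and 2.96 ± 0.180 in the htl, ths and pyr windows (SD, n = 3), a difference of -0.562 ± 0.241. The mean of the strongest peaks was 2.23 ± 0.210 times the list median for bnl and btl and 3.28 ± 0.0726 for htl, ths and pyr, a difference of -1.05 ± 0.247. The tracheal pair was lower in 3 of 3 replicates on both, with an exact sign-flip permutation p of 0.25 for each, the smallest this design can give (two-sided). Over the 18 differences of this kind that were computed, the Benjamini-Hochberg adjusted permutation p of each was 0.409. With the 8143 strongest peaks of each replicate, the density difference shrank to -0.0649 (exact permutation p = 0.75), and with smaller windows of the gene body and 2 kb on each side to -0.229 (exact permutation p = 0.75). By strength of the best peak the order was bnl, ths, pyr, htl and btl. The best peak is the highest of all summits in a window, and the windows were 62.7, 77.6, 34.1, 27.8 and 27.5 kb long in this order. The part of window length in the strengths was not tested. In strength, the difference of bnl minus ths was 0.365 ± 0.300 and higher in 3 of 3 replicates, but the replicate values overlapped (3.38 to 4.67 against 3.31 to 4.00). That of pyr minus ths was -0.499 ± 0.403 with pyr lower in 3 of 3, and the values did not overlap. That of pyr minus htl was 0.111 ± 0.461, higher in 2 of 3, with overlap. That of htl minus btl was 2.60 ± 0.308, higher in 3 of 3, with no overlap.

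Other genes of the pathway were listed from textbook roles with earlier results of these data known, and 35 of 45 had an IDR summit in the window, or 77.8% against the 52.6% of all coding genes. Their median was 3 summits per window, against 1 over all coding genes, and 0.769 per 10 kb, against 0.346. Intracellular relay genes had the fewest, with 5 of 10 and a median of 0.5 per window and 0.181 per 10 kb. Among them Raf, the kinase under Ras, had 9 IDR summits, csw, a tyrosine phosphatase of receptor signalling, had 4, and stumps, the adaptor of both FGF receptors, had 3. The kinases Dsor1 and rl, the gene ksr, the exchange factor Sos and Ras85D had no IDR summit, although Ras85D had 2 pooled summits. The 5 nuclear and feedback genes all had summits, with a median of 8 per window and 1.89 per 10 kb. Of these sty, which encodes the FGF antagonist Sprouty, had 12, pnt, the ETS activator, had 9, and Mkp3, a MAP kinase phosphatase, had 8, as did aop. The strongest summit at sty was 4.18 times the IDR list median, and at Mkp3 4.36 times, against 1.86 times at bnl, the strongest of the 5 FGF genes.

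Heparan sulfate genes had IDR summits in 10 of 12 cases (83.3%), with a median of 3.5 per window and 0.720 per 10 kb. Over all coding genes the share was 52.6% and the median 0.346 per 10 kb. The glypican gene dlp had 14, ttv, an enzyme that extends the sugar chain, had 10, and the syndecan gene Sdc had 9. Tracheal regulators had them in 9 of 10 cases (90%), also with a median of 3.5 per window, but 1.08 per 10 kb. They were led by sima, the fly HIF-alpha, with 12 and rib with 6. Hph, the prolyl hydroxylase acting on sima, had 4, a number that vvl and knrl shared. The trachea selector trh had 1, ranked 158 in the list at 3.59 times the IDR median. Mesoderm regulators had them in 6 of 8 cases (75%), with a median of 1.5 per window and 0.465 per 10 kb. They were led by the muscle factor Mef2 with 11, zfh1 with 7 and the heart gene tin with 3. Of the 45 genes, 22 had an IDR summit within 500 bp of an own start, against 12.8% of all coding genes, and sty, Raf, ttv and trh did not. A summit in a window can lie nearer to the start of another gene, and nearest starts are not given for these lists. These genes act in many tissues, no test was made, and gene length was not matched.

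**Figure D4:**
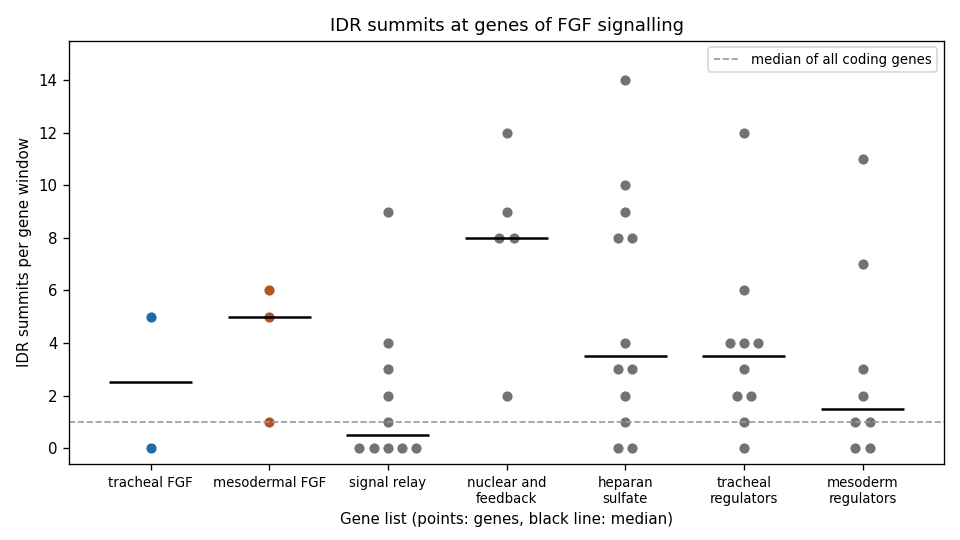
IDR summits in the window of each gene (points), by gene list, with the list median as a black line and the median over all coding genes, 1, as a dashed line. The nuclear and feedback genes lie highest with a median of 8, and 5 of the 10 relay genes lie at 0.

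The member peaks were also looked up in single replicates, although the IDR list was made from these replicates and this is no independent evidence. Of the 17 IDR summits, 15 had a summit within 100 bp in each of 3 replicates and the other 2 had one in 2 replicates. Counted by overlap of the replicate interval with the IDR interval, 16 recurred in all 3. Among the 8143 strongest peaks of each replicate, 9 of the 17 recurred in all 3. Member summits ranked from 1029 to 7739 in the IDR list with a median rank of 3550, and 9 of 17 were in the stronger 50%. The pooled list held 49 further, weaker summits in the windows, of which 16 recurred in 3 replicates, 24 in 2, 6 in 1 and 3 in none. Recurrence was not computed over all IDR or pooled summits, so these counts do not set the members apart from other peaks.

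Over the 17 regions of 300 bases around IDR summits, the words were counted once per region. TGATNNAT, a composite word of Hox proteins with their partner exd, was in 7 of 17 against 12.1% of all IDR regions. TCAAGTG was in 4 of 17 (4.74%), TAATTA in 4 (13.1%), TGCAAAT, a POU word linked to vvl, in 4 (9.89%), TTTATGG, a word of posterior Hox proteins, in 3 (13.0%) and GAGAG in 8 (46.4%). CATATG was in 2 (8.20%), CCGGAA, an ETS word, in 1 (7.88%), and TACGTG (7.65%) and CAGGTAG, the Zelda word (1.17%), in 0. The 7 regions with TGATNNAT were 1 at bnl, 3 at ths and 3 at pyr. Within 100 bases of sequence around the summit 3 of 17 held it, against 4.32% of IDR regions. In these shorter regions GAGAG was in 8 of 17 against 18.8%, TAATTA in 3 (5.12%), TCAAGTG in 2 (1.40%), TGCAAAT in 2 (3.75%) and the other words in 0. Median GC content was 46.7% in the 17 regions and 46.0% in all IDR regions. The regions of ths summits 3 and 4 overlap, and no test was made.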

How the data were processed

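Peak lists on dm6 were deposited for ChIP-seq of 3 biological replicates, 1 list per replicate, 1 pooled list and 1 IDR list, per the labels and the text records deposited with them. The deposited records name a single control file behind the replicate lists and the pooled list, so positions set by it are shared. Sonicated fragments were 200 to 800 bp long, per the labels. Neither the aligner nor the peak caller nor the IDR cut-off is given in the sources used here. Read depth was unknown, and the control was not analysed here. The signal value was taken as a score from the deposited files, made by the authors, and served within a list alone, as a multiple of the list median. The deposited −log10 q-value sat at a ceiling in 93.8% of IDR peaks and in 22.3 to 28.9% of the peaks of the other lists and was not used, and the deposited p-value column held a placeholder.

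Gene models were those of Ensembl 115 (FlyBase 6.54) for genome release 6, whose coordinates are those of dm6, with 13945 coding genes on the 6 main arms. A summit (start plus offset) was counted in a window of the gene body with 10 kb on each side, and 1 listed symbol was matched to a renamed gene (phl to Raf). Replicate summits within 100 bp were paired with IDR summits. Promoter means within 500 bp of a start. The tests were two-sided exact sign-flip permutation tests over 3 replicates, whose p-values describe these samples. Other windows, overlap rules, strength measures and left-out replicates were tried. The counting step was checked on simulated data and returned the planted numbers. Python 3.11.15, numpy 2.4.6, pandas 2.3.3 and matplotlib 3.10.9 were used. The members, the gene lists and the words were chosen with earlier results of these data known. Genes were named as members, as nearest coding starts of member summits, or as the 3 genes of each list with the most IDR summits (ties by the strongest summit); the tied genes, the genes nested in ths, the relay genes without one, trh, Frl, Sox21a and the tRNA gene were named after their values were seen.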

Additional observations from a re-analysis of the deposited data

How the results depend on the processing

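With smaller windows of the gene body and 2 kb on each side, pyr kept 3 of its IDR summits, its strongest peak fell to 1.92 times the list median and btl had none (0). With the gene body only, 2 members had a summit, and htl and pyr had 0. In the stronger 50% of the IDR list, ths and pyr had 2 each. As percentile rank within the list, the strongest peak stood at 95.7 for bnl, 15.7 for btl, 91.9 for htl, 94.8 for ths and 92.9 for pyr. These values differ from the main ones in scale, a percentile against a multiple of the median, and the order of the genes stayed the same. With replicate peaks limited to the 8143 strongest, 9 IDR summits recurred in all replicates. Within 100 bases around the summit, the composite Hox word was in 3 regions, the Tinman and POU words in 2 each, and the posterior Hox, Twist and ETS words in 0. The cause was not tested beyond the smaller windows or lists themselves. The other 72 of 92 values kept their direction or stayed within the replicate SD or 1.5 times the count. The tracheal minus mesodermal difference ranged from -1.15 to -0.916 in strength and from -0.664 to -0.429 in summits per 10 kb when 1 replicate was left out. Setting unlisted peaks to the lowest value of the list, chosen after seeing the data, gave a strength difference of -0.977. Read depth was unknown, so an absent peak, as at btl, is one not listed among the 30000 strongest, and 3 replicates allow no p under 0.25.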
